A study of Mus musculus with 4 samples.

Results

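Histone genes were examined for DHX9 peaks in mouse embryonic stem (ES) cells, with the replication-dependent genes of the histone clusters set beside the variant genes. Members were all protein-coding histone genes of a RefSeq gene table, found by their symbol or their older symbol (names beginning H1f, H2ac, H2bc, H2az, H2ax, H3c, H3f3 or H4c, or in older form Hist1 to Hist4 and H2af). There were 84 of them among 21900 protein-coding genes, of which 67 were clustered genes and 17 were variant genes. All samples came from WT26, a feeder-independent male ES cell line of C57BL/6x129sV background grown with serum and leukemia inhibitory factor, with no treatment and no genetic change named in the labels. Of the 4 samples, 2 were pulldowns with a rabbit antibody against DHX9, an RNA helicase that unwinds duplex RNA, and 2 were control pulldowns with rabbit IgG, each pair labelled as biological replicates A and B. The assay was FLASH, in which ultraviolet light fixes protein to RNA, an antibody recovers the protein, and the attached RNA fragments are sequenced. The deposited file was 1 list of 59563 peaks, each given only by its position and strand. IgG and DHX9 pulldowns were pooled ahead of RNA purification, and tags in the adapters tell pulldowns and replicates apart.

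Histones are the proteins around which DNA is wrapped: H2A, H2B, H3 and H4 form the nucleosome core and H1 binds the linker. Most are encoded by short genes without introns, which lie in clusters and are transcribed in S phase, and whose mRNAs end in a conserved stem-loop in place of a poly(A) tail. Variant histones such as H3.3, H2A.Z and macroH2A are made throughout the cell cycle, mostly from genes with introns and polyadenylated mRNAs. Of the 17 variant genes counted here, however, 10 were taken as intronless.

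The list gave no peak height, count or p-value and nothing per replicate or for IgG alone, so depth is unknown and no error between pulldowns can be stated. Intervals below are 95% Wilson intervals over genes or peaks and cover counting error only. Of 10 ES cell marker genes 9 held a peak, among them Pou5f1 with 12 and Nanog with 13, and Dppa5a held none, while 0 of 8 fibroblast markers did. Among 9 markers of differentiated lineages only the tubulin gene Tubb3 held peaks.

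Clustered histone genes often held DHX9 peaks, in spite of their small size. A peak midpoint lay in 36 of 67 clustered genes (53.7%, 95% interval 41.9 to 65.1%), and in 22.8% of all protein-coding genes. The clustered genes had a median length of 492 bases. Among the 1493 other protein-coding genes of 300 to 1000 bases, 7 held a peak, or 0.469%. Those 7 were the metallothionein gene Mt2, the splicing factor gene Sf3b5, the mitochondrial genes ND1 and ND6, and 2310039H08Rik, Gm31649 and Gm37116. The clustered genes of up to 1000 bases alone gave 35 of 61 (57.4%, interval 44.9 to 69.0%). RNA levels were not measured here, so these genes were not matched on expression, and its part in the difference was not tested. Variant genes gave 6 of 17 (35.3%, interval 17.3 to 58.7%), an interval that overlaps that of the clustered genes. The variant share rests on how the class is drawn: it was 2 of 11 in variant genes of up to 2500 bases and 4 of 6 in longer ones. Other protein-coding genes held a peak in 3.3% of cases at 1000 to 2500 bases. At 2500 to 20000 bases the share was 17.5%, and above 20000 bases 33.3%. With 10 variant genes taken as intronless moved to the clustered class, the variant share was 5 of 7 (71.4%) against 37 of 77 (48.1%), the opposite order.

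Bound clustered genes held 1 or 2 peaks each, while some variant genes held many. Of the 36 bound clustered genes, 24 held 1 peak and 12 held 2, and none held 3 or more. Over all protein-coding genes, 14.8% held at least 3 peaks and a bound gene held a median of 5; these genes are longer, with a median of 17146 bases. The 6 bound variant genes held 20, 17, 2, 2, 1 and 1 peaks. The clustered genes together held 48 peaks over 101.9 kb of gene body and the variant genes 43 over 158.9 kb. In the short clustered genes the density was 1.45 peaks per kb, against 0.0538 per kb over all protein-coding genes.

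**Figure D1:**
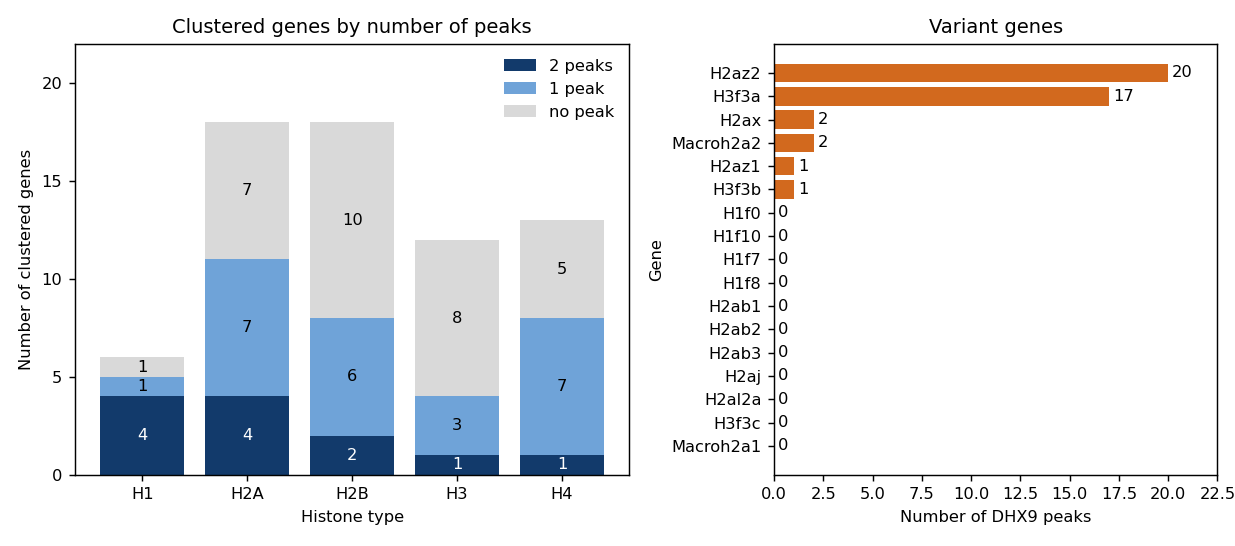
Left, the number of clustered histone genes (y axis) of each histone type (x axis) with 2 peaks, 1 peak or none; right, the number of DHX9 peaks in each of the 17 variant genes. Clustered genes held at most 2 peaks, while H2az2 held 20 and H3f3a held 17.

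Linker histone genes had the highest covered share by median, 69.2% over the 5 bound genes, against 42.4% for H4, 36.8% for H2B, 35.3% for H2A and 32.9% for H3. The somatic H1 genes of the cluster, H1f1, H1f2, H1f3, H1f4 and H1f5, all held peaks, with 2 in each of the first 4 and 1 in H1f5. Peaks covered 73.3% of the bases of H1f1 (chromosome 13, 23763668 to 23764412), 69.2% of H1f2, 71.7% of H1f3, 46.5% of H1f4 and 38.5% of H1f5. The testis gene of the same family, H1f6 (735 bases), lies in the same cluster and held none; its nearest peak was 1540 bases away. None of the 4 H1 genes outside the clusters held a peak: H1f0, which encodes the linker histone of resting cells, H1f10, the oocyte gene H1f8 and the spermatid gene H1f7. These 4 genes are 1062 to 5312 bases long. Few other protein-coding genes of such lengths held a peak, 3.3% at 1000 to 2500 bases and 17.5% at 2500 to 20000 bases. With 4 genes, a count of 0 is thus close to that background. H1f0 is 2.29 kb long and its nearest peak was 44727 bases away.

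Among the core histones, the clustered H2A and H4 genes were bound in 11 of 18 and 8 of 13 cases, and the H2B and H3 genes in 8 of 18 and 4 of 12. The intervals overlap (38.6 to 79.7% for H2A, 35.5 to 82.3% for H4, 24.6 to 66.3% for H2B and 13.8 to 60.9% for H3). The difference between these types was not tested. H2ac4, H2ac20, H2ac21 and H2aw held 2 peaks each among the H2A genes, H2bc4 and H2bc18 among the H2B genes, H3c4 among the H3 genes and H4c4 among the H4 genes. H2bc18 had the highest covered share of the short clustered genes, 90.9% of its 493 bases, and H2ac10 the lowest of those with a peak, 9.92% of 504 bases. The other bound genes held 1 peak each: H2ac6, H2ac7, H2ac10, H2ac11, H2ac12, H2ac13 and H2ac15; H2bc3, H2bc8, H2bc9, H2bc12, H2bc13 and H2bc15; H3c2, H3c3 and H3c11; and H4c11 with 6 further H4 genes.

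Peaks lay on the sense strand. RefSeq promoter entries gave a strand for 78 of the 84 genes. In those, 85 of 86 peaks were on the strand of the gene (98.8%, interval 93.7 to 99.8%), with 44 of 45 in clustered genes and 41 of 41 in variant genes. Nuclear protein-coding genes that overlap no other gene gave 99.1%. The 1 antisense peak, 81 bases wide, lay over the first bases of H2ac21. This gene and H2ac20 face each other on chromosome 3, with 58 bases between their 3′ ends. A 503-base peak on the strand of H2ac20 ran 243 bases past the end of that gene, into H2ac21. H2bc4 and H2ax, which had 2 peaks each and no promoter entry, held both on 1 strand. H4c14, also without an entry, held only 1 peak, so its strand could not differ.

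Within the short clustered genes, sense peaks lay toward the ends of the gene. Of 44 sense peaks in 34 genes, 15 had their midpoint in the first of 3 equal parts of the gene, 29 in the last and 0 in the middle, where 3 counts of 44 would be a share of 6.82% and the upper Wilson limit is 8.03%. In other nuclear protein-coding genes that overlap no other gene, the middle part held 31.3% of 32 sense peaks in genes of up to 2500 bases, 39.5% in genes of 2500 to 20000 bases and 32.3% in longer genes. Averaged over the 34 histone genes, 85.3% of bases between 90 and 95% of the gene length lay under a sense peak, 6.91% of those between 40 and 45%, and 44.1% of those between 10 and 15%. How reads that match several gene copies were placed is not given, and sequence shared between the bodies of histone genes was not measured. The part of read placement in the low cover of the middle was not tested.

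Most of these peaks had an edge close to an annotated end of the gene. Of the 29 peaks at the 3′ end, 24 ended within 10 bases of the annotated gene end, 7 of them on its last base. The median last base lay 1 base past the gene end. In other protein-coding genes, 13 of 97 sense peaks with a midpoint in the last 300 bases ended that close (13.4%, against 82.8% in the histone genes). Of the 15 peaks at the 5′ end, 13 began within 25 bases of the gene start, and 8 within 10 bases. In other genes 25 of 179 sense peaks with a midpoint in the first 300 bases began within 10 bases of the start (14.0%, against 53.3%). The gene table gives the outermost bounds of all transcripts of a gene, so a start or end used in ES cells can lie inside them in genes with several transcripts.

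Which end held the peak varied with the histone type, in small numbers of genes and with no test of the difference. All 5 bound H1 genes, all 11 bound H2A genes and all 7 bound H4 genes with a strand had a peak at the 3′ end, as did 3 of 4 H3 genes. Of 7 H2B genes, 5 had a peak at the 5′ end and 3 at the 3′ end; H2bc3, H2bc8, H2bc13 and H2bc15 had the 5′ peak alone. Peaks at both ends were found in 10 genes: H1f1, H1f2, H1f3, H1f4, H2ac4, H2ac20, H2aw, H2bc18, H3c4 and H4c4. The 5′ peak alone was found in 5 genes and the 3′ peak alone in 19. In H4c4 the 5′ peak ran over 133 bases from 2 bases before the gene start, and the 3′ peak over 185 bases to 1 base past its end. In H1f4 the 3′ peak of 222 bases ended 28 bases past the gene. The 5′ peaks had a median width of 170 bases and the 3′ peaks of 202 bases.

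**Figure D2:**
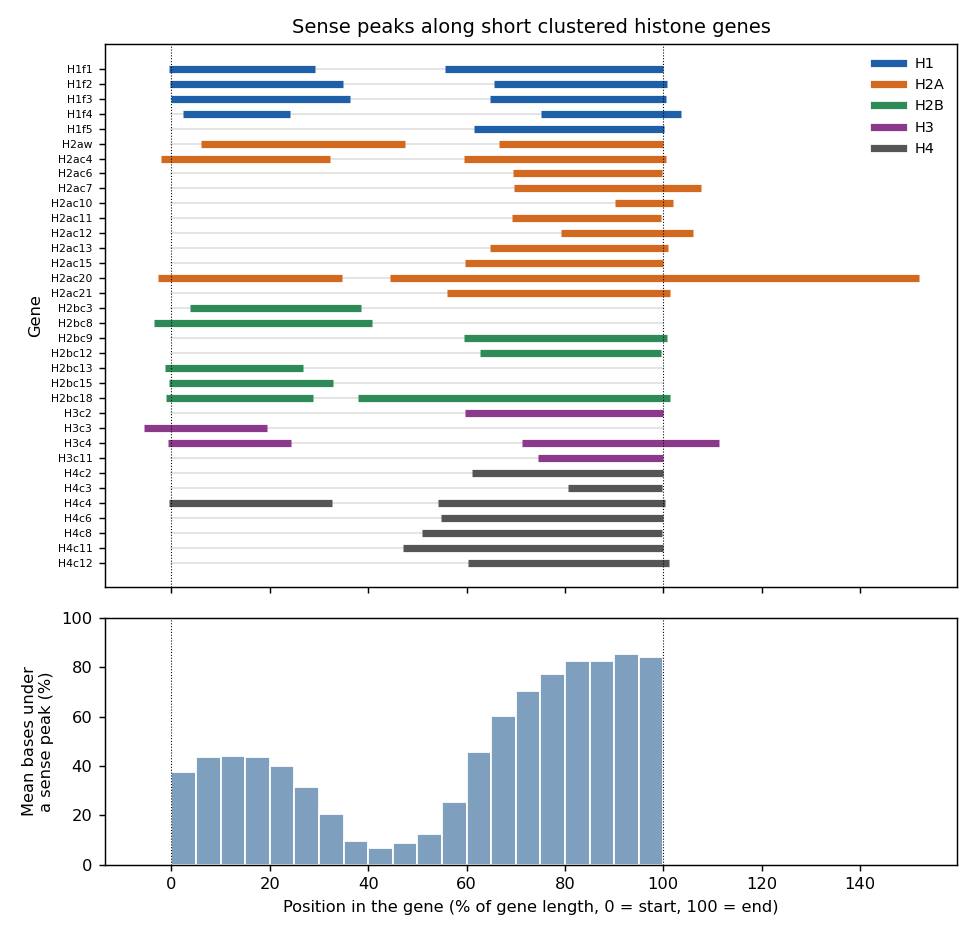
Top, each bar is 1 sense peak in a clustered histone gene of up to 1000 bases, drawn along the gene scaled from start (0) to end (100% of its length) and coloured by histone type; bottom, the mean share of bases under a sense peak in 20 bins over the 34 genes. Bars stop at the gene end in most genes, and the profile falls to 6.91% near the centre.

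Nearly all peaks inside the histone clusters lay in histone genes, though these fill a small part of the span. The clustered genes formed 7 loci, with neighbours up to 100 kb apart joined, over 421.9 kb in all. Gene bodies filled 24.2% of that length and held 48 of the 49 peaks. The remaining peak, 312 bases on the minus strand of chromosome 13 (22040701 to 22041012), overlapped the last 53 bases of H4c9, a minus-strand gene, and had its midpoint past the gene end. The largest locus, 29 genes from H4c8 to H1f1 (chromosome 13, 23531044 to 23764412), held 28 peaks in 20 genes. The next, 18 genes from H2bc13 to H4bc24 (chromosome 13, 21715711 to 21837530), held 8 peaks in 8 genes. On chromosome 3 the 10 genes from H2ac21 to H2bc18 (96219885 to 96270192) held 7 peaks in 4 genes. On chromosome 11, H2aw held 2 and H2bu2 none, and H4f16, the only clustered gene on chromosome 6, held none.

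**Figure D3:**
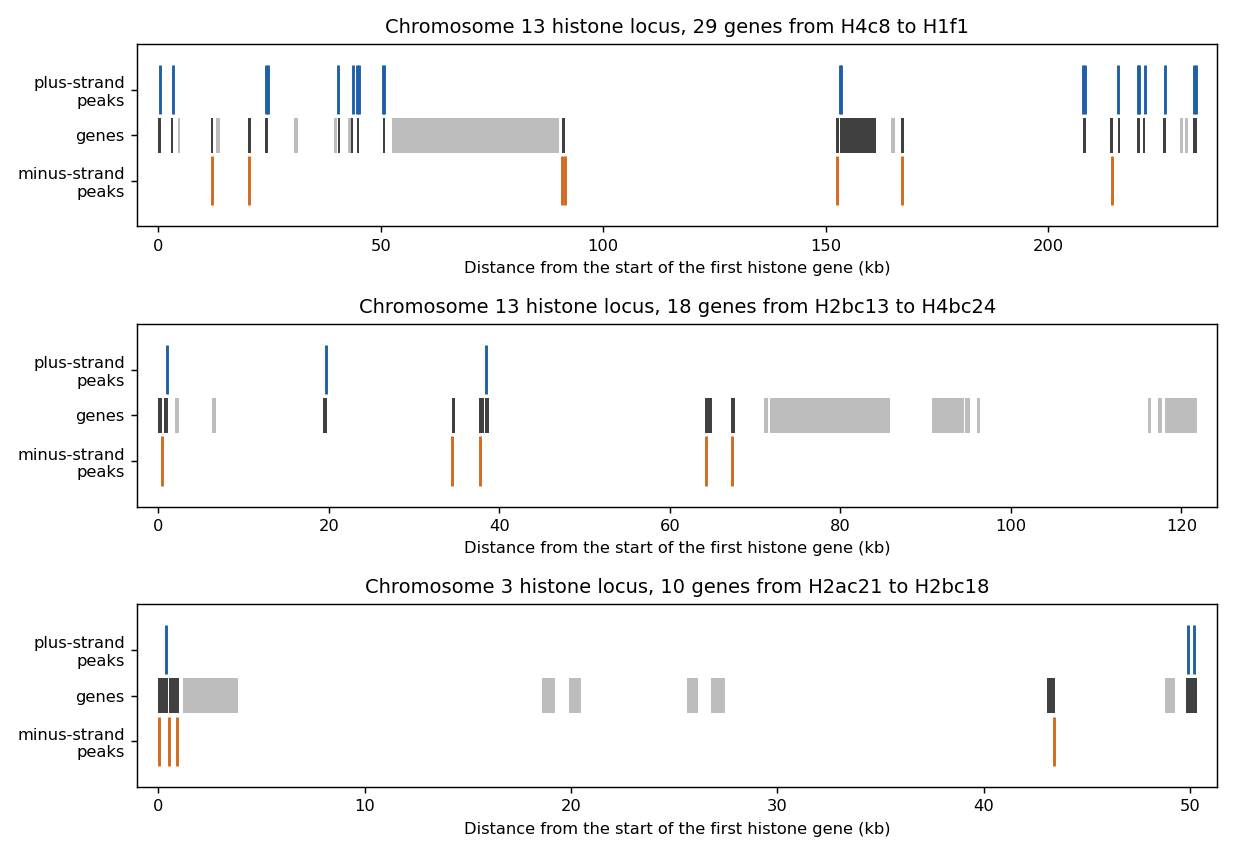
The 3 largest histone loci, with distance in kb from the start of the first gene; boxes are histone genes, dark with a peak and light without, and vertical lines are peak midpoints on the plus strand (above, blue) and minus strand (below, orange). Peaks stand over short genes, and stretches of neighbouring genes have none.

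Of the clustered genes, 6 have annotated bodies of over 1000 bases: H2bc4, H2bc6, H2bc21, H2bc22, H2bc23 and H4bc24, the last an H2B gene by its older symbol, Hist1h2br. H2bc6, with 37455 bases, held no peak. H2bc4 has 8282 bases (chromosome 13, 23684199 to 23692480), and its 2 peaks, at 23684198 to 23684300 and 23684468 to 23684675, both lay at the end of the body that faces its neighbour H2ac6.

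Many H2A and H2B genes stand as divergent pairs that share the DNA between their starts. There were 10 such pairs with both strands known, with 163 to 280 bases between the genes. Both genes held a peak in 3 pairs, 1 gene in 3 pairs and neither in 4. All 9 peaks in these pairs lay on the strand of their own gene, so that in H2ac12 and H2bc12 the peaks ran in opposite directions away from the shared promoter. In the 3 pairs bound on 1 side, the bound gene was H2ac11, H2bc8 or H2ac7. H2ac6 with H2bc4 and H2ac20 with H2bc21 also stand 239 and 191 bases apart, but the H2B gene of each had no promoter entry.

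Genes without a peak stood next to each other in places. H2ac22, H2bc22, H2bc23, H2ac23, H4c17, H4c18, H2ac24 and H4bc24 formed a run of 8 over 50.8 kb of chromosome 13 with no peak at all. H2bc21, H3c15, H2ac19, H2ac18 and H3c14 formed a run of 5 over 26.3 kb of chromosome 3, also without a peak. Several of these genes have a promoter much like that of another member. The promoter window (250 bases before to 50 after the start) shared an exact run of at least 100 bases with that of another member in 10 of 62 clustered genes. These formed 5 couples: H2bc23 and H4bc24 (300 bases, the whole window), H4c17 and H4c18 (285), H3c14 and H3c15 (231), H2ac18 and H2ac19 (219), and H2ac23 and H2ac24 (200). Of these 10 genes 0 held a peak. Of the other 52, 34 did (65.4%), and the longest run among those was 72 bases, between H4c11 and H4c12, each with 1 peak. The way reads that match several copies were placed is not given in the sources used here, so values for such copies are uncertain, and the part of read placement in their lack of peaks was not tested. The limit of 100 bases was chosen after these values were seen. Most of the window lies before the start, and the gene bodies, from which the RNA comes, were not compared. A gene with a shorter promoter run can therefore still have a close copy in its body.

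The couple H2ac18 and H2ac19 shows how alike such promoters are. Each line gives the 100 bases before the start, 5′ to 3′ on the strand of the gene (RefSeq, GRCm38.p6), at chr3:96245397-96245496 on the plus strand and chr3:96240375-96240474 on the minus strand. Capitals mark the 60 bases found in both of these stretches.
H2ac18: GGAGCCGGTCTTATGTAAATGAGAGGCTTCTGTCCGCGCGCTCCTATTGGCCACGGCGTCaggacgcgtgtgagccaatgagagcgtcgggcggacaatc
H2ac19: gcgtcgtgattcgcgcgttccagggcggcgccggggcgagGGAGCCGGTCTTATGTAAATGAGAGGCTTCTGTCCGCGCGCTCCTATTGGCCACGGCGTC

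Of the bound genes, 3 H1 genes and the divergent pair H2ac12 and H2bc12 are shown for contrast, none of which shares a promoter run of 100 bases with another member. Each line again gives the 100 bases before the start (RefSeq, GRCm38.p6), on chromosome 13 at chr13:23763568-23763667 (H1f1, plus), chr13:23554932-23555031 (H1f3, plus), chr13:23622559-23622658 (H1f4, minus), chr13:22035644-22035743 (H2ac12, minus) and chr13:22035721-22035820 (H2bc12, plus). Capitals mark CCAAT and TATAAA on the strand of the gene, the short motifs of many histone promoters.
H1f1: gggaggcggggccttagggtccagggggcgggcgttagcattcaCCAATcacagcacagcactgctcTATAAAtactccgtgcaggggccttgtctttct
H1f3: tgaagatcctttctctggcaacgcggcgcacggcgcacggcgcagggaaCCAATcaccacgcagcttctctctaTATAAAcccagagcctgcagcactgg
H1f4: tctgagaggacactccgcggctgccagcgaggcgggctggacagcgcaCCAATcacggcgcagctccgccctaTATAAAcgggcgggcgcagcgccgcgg
H2ac12: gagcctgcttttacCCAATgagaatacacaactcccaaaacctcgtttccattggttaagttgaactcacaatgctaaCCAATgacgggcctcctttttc
H2bc12: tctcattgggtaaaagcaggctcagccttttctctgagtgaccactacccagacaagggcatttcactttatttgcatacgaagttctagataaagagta

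The motifs were common in clustered promoters. CCAAT was present on either strand in the 250 bases before the start in 51 of 62 clustered promoters (82.3%), 9 of 16 variant promoters (56.3%) and 9314 of all 27025 promoters in the table (34.5%). TATAAA was present on either strand in 29 of 62 clustered promoters (46.8%), 1 of 16 variant promoters and 3504 of all promoters. On the strand of the gene it was in 24 clustered promoters (38.7%), 1 variant promoter and 2195 of all (8.12%). At 15 to 40 bases before the start on that strand, it was in 12 (19.4%), 1 and 600 (2.22%). Windows of divergent pairs can overlap, so a match on either strand can count for both genes. Clustered genes with a peak held CCAAT in 29 of 34 cases and TATAAA in 18 of 34, and those without a peak in 22 of 28 and 11 of 28. A match is a description of the letters and not evidence of a bound factor.

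Among the variants, genes for the same or nearly the same protein held very different numbers of peaks. H3f3a and H3f3b encode the same protein, the replication-independent H3.3. H3f3a (chromosome 1, 180802560 to 180813605) held 17 peaks over 11046 bases, or 1.54 per kb, covering 44.4% of its bases. H3f3b (chromosome 11, 116021961 to 116026039) held 1 peak over 4.08 kb, or 0.245 per kb, covering 5.76%. The third gene of this group, H3f3c (1037 bases), held none. H2az1 and H2az2 encode forms of H2A.Z that are nearly alike. H2az2 (chromosome 11, 6427226 to 6444511) held 20 peaks over 17.3 kb, or 1.16 per kb, and H2az1 (chromosome 3, 137864487 to 137866922) held 1 over 2.44 kb, or 0.411 per kb. In each couple the gene with many peaks was the longer one, and exons and introns were not told apart here.

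Peaks of the long variant genes lay inside the gene body and away from its ends. In H3f3a the 17 peaks followed each other along the minus strand from 3531 bases after the gene start to 681 bases before its end. Of these, 1 had its midpoint in the first of 3 equal parts of the gene, with 8 in the middle part and 8 in the last. In H2az2 the first of the 20 peaks began 1075 bases after the start and the last ended 2749 bases before the end, with 7, 9 and 4 in the 3 successive parts. The single peak of H3f3b began 3161 bases into the gene and that of H2az1 594 bases into it.

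**Figure D4:**
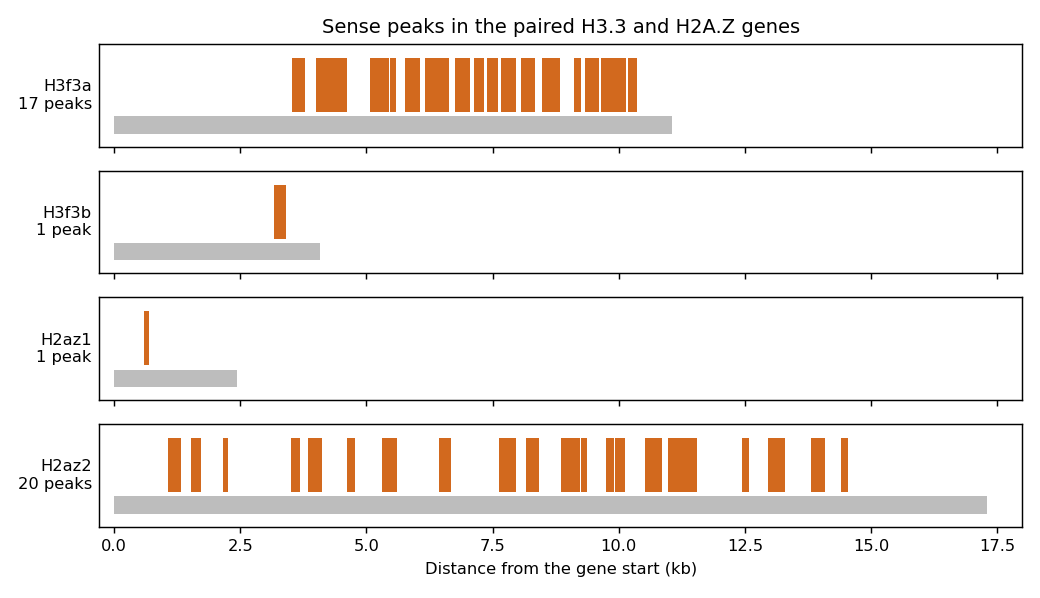
Sense peaks (orange boxes, drawn to scale) above the gene bodies (grey) of H3f3a, H3f3b, H2az1 and H2az2, by distance from the gene start in kb. H3f3a and H2az2 carry 17 and 20 peaks in a row, and H3f3b and H2az1 carry 1 each.

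Other variants held few peaks or none. H2ax (chromosome 9, 44334715 to 44336077), which encodes the histone phosphorylated at DNA breaks, held 2 plus-strand peaks of 280 and 272 bases. The first, at 44334689 to 44334968, began outside the gene body, and the second lay inside it. Together they covered 38.6% of its 1363 bases. Macroh2a2, the gene for a large variant linked to silent chromatin, held 2 peaks in 46.0 kb, and its relative Macroh2a1 held none in 62.0 kb, its nearest peak being 355965 bases away. Macroh2a2 overlaps 3 other genes and Macroh2a1 overlaps 1. Whether the 2 peaks of Macroh2a2 also lie in an overlapping gene was not examined. H2aj, H2ab1, H2ab2, H2ab3 and H2al2a also held none; the H2ab and H2al genes are known from testis. H2al2a entered the set only through an older symbol that it shares with H2ab1. Among the 31 clustered genes without a peak, 9 had a peak within 1000 bases. None of the 11 variant genes without a peak did, the nearest peak being 4480 bases away, beside H2aj. Clustered genes stand close to each other, and 48 of the 49 peaks in their loci lay in histone genes. A near peak can thus be that of a neighbouring histone gene.

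Peaks in clustered genes were narrower than those in variant genes by their medians, 179.5 bases (quartiles 146 and 216) against 257 bases (162.5 and 309). The median of the whole list was 196 bases. Widths overlapped widely, from 60 to 503 bases in clustered and from 84 to 578 bases in variant genes. H2az2 and H3f3a supplied 37 of the 43 variant peaks, with medians of 253 and 296 bases, so the variant value rests on these 2 genes. Among the clustered types, H1 genes had the widest median, 255 bases, and H3 genes the narrowest, 127 bases over 5 peaks.

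**Figure D5:**
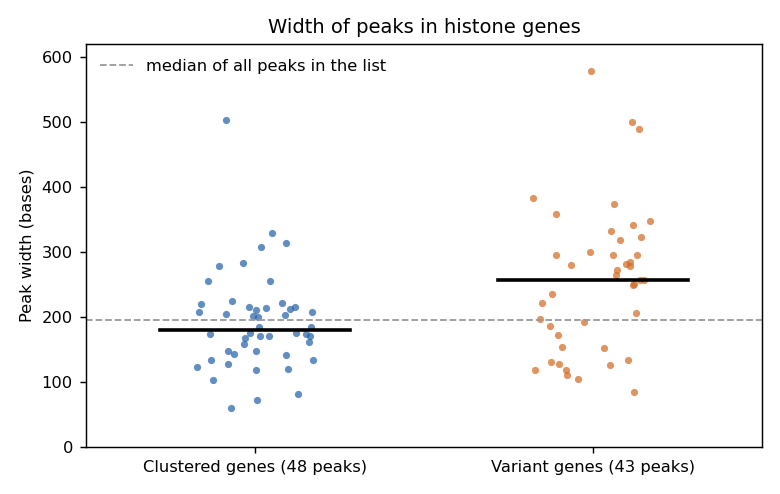
Width in bases (y axis) of each peak in clustered and in variant histone genes (1 point per peak, spread sideways to be seen); black bars are medians and the dashed line is the median of the whole list. The clustered median of 179.5 bases lies below the line and the variant median of 257 above it.

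Genes listed for the making and handling of histones were also bound, though not all of them are particular to histones. In a list of histone mRNA 3′ end and locus body genes, 19 of 24 held a peak (79.2%, interval 59.5 to 90.8%), with a median of 2 peaks. Wdr33, a polyadenylation factor gene and so not one particular to histone mRNAs, held 64. Upf1, which encodes a helicase used in histone mRNA decay, held 25, the scaffold gene Sympk 24 and Srrt, for a partner of the cap-binding complex, 15. Slbp, whose product binds the histone stem-loop, held 10, and Npat, which encodes the S phase activator of the clusters, held 3. Lsm10 and Lsm11, for the U7 snRNP, and Zfp473, Snapc1 and Ncbp1 held none. Of 29 histone chaperone and exchange genes 26 held a peak (89.7%, interval 73.6 to 96.4%), with a median of 12 peaks. Srcap, for the enzyme that deposits H2A.Z, held 57, Atrx, for a remodeller in H3.3 deposition, 55, Nasp, for a chaperone of H3 and H4, 54, and Rbbp4 50, while Asf1a, Dnajc9 and Tonsl held none. The median lengths of these lists, 28.2 and 22.2 kb, were far above those of the histone genes, and 33.3% of other protein-coding genes over 20000 bases held a peak.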

How the data were processed

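FLASH libraries from 2 DHX9 and 2 IgG pulldowns entered through 1 deposited peak list; the list names PEAKachu as its source column and gives positions and strands, 1-based, per the file itself, and no score. Per the submitters' processing notes Bowtie2 2.2.6 and the builds hg19 and mm10 were named, with no role given; the positions were read as mm10. The use of replicates, IgG and multiply matching reads in the calling is not given in the sources used here. Genes came from a RefSeq table of GRCm38.p6, the assembly of mm10, and strands from its promoter table. Each peak was counted for all genes that contain its midpoint, on either strand. Counts were made with Python 3.11.15 and pandas 2.3.3, and assignment was checked on simulated peaks in 200 genes, all recovered. The simulated peaks lay wholly inside genes that overlap no other gene, so their recovery does not cover peaks that cross a gene end. Promoter runs and motifs were exact matches. By rule the text named all variants, the 30 clustered genes with the most peaks (ties by symbol), and of each pathway list the 4 genes with the most peaks and those with none. H4c8, H4c9, H4c12, H4c14, Slbp, Npat, the genes of the runs and couples without peaks, and the pair and locus members without peaks were named in addition, after their values were seen. An entry of the chaperone list, Spt2, matched only an alias of another gene and was left out. The members and lists were chosen with earlier results of these data known, and no test was made on them. The alternatives tried were other assignment rules, merged peaks, wider peaks, a higher minimum and other classes.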

Additional observations from a re-analysis of the deposited data

How the results depend on the processing

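Of 60 values recomputed for 8 results under other settings, 51 stayed within the 95% interval of the reported value (for counts of peaks, within 1.5 times) and 9 moved. With at least 3 peaks per gene, 0 of 67 clustered genes remained (0%, 0 peaks, so no width could be given) against 2 variant genes (11.8%), and 100% of peaks were on the majority strand. The majority strand is the strand with more of a gene's own peaks, and its main value was 90 of 91 peaks (98.9%). A gene with 1 peak, as in 26 of the 42 bound genes, counts in full by construction. Keeping peaks no narrower than the list's median, 28.4% of clustered genes held a peak, with 22 peaks of median width 218 bases, all (100%) on the majority strand; this filter removes narrow peaks by construction. With 10 intronless variant genes counted as clustered, 5 of 7 remaining variants held a peak (71.4%) against 37 of 77 clustered genes (48.1%), so the order of the classes turned. With peaks within 50 bases merged, 1 of 42 sense peaks of the short clustered genes had its midpoint in the middle part of the gene (2.38%). Under the remaining settings the clustered share was 53.7 to 63.2%. The position settings and the leaving out of clustered genes that are long or have near-identical promoters were chosen after seeing the data. No paired analysis was possible because the list pools the samples and carries no replicate. Depth is unknown, so a gene without a peak is not shown to be unbound.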

Other observations

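Within 10 kb outside the histone loci lay 3 small peaks, all on chromosome 13, of which 2 were in tRNA genes. A 37-base plus-strand peak (21711047 to 21711083) overlapped the methionine tRNA gene n-TMcat7, and a 31-base minus-strand peak (23530334 to 23530364) overlapped n-TMcat9 and the long noncoding RNA gene Gm11335. The other, 36 bases on the minus strand (22050667 to 22050702), lay in no gene. None of the 9 histone pseudogenes in the table, among them H2ac14, H2ac5-ps and H3f3a-ps1, held a peak midpoint. They are 305 to 2983 bases long. Other protein-coding genes held a peak in 0.469% of cases at 300 to 1000 bases and 3.3% at 1000 to 2500 bases. A count of 0 of 9 is thus close to that background.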
